A study of Mus musculus with 16 samples.

Results

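The chaperonins are barrel-shaped protein folding machines, and the 10 genes described here encode the chaperonin of the cytosol and that of mitochondria. They were chosen by gene symbol, with earlier results of these data known. Tcp1, Cct2, Cct3, Cct4, Cct5, Cct6a, Cct7 and Cct8 encode the cytosolic complex, and Hspd1 and Hspe1 the mitochondrial one. All 10 were among the 9443 genes of the deposited count table, and all 10 were among the 6824 genes with enough counts to be tested.

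Wild-type (WT) mice had received anti-CD40 or, as control, an isotype antibody 4 h before germinal centre B cells were sorted from their lymph nodes for RNA sequencing. CD40 is a B cell surface receptor for the signal of helper T cells. The sort separated the light zone (LZ) of the germinal centre, the site of T cell help, from the dark zone (DZ), the site of division. There were 16 libraries, 4 for each antibody in each zone, called isotype LZ and anti-CD40 LZ, and likewise isotype DZ and anti-CD40 DZ. Each library held 3′ end tags counted as unique molecular identifiers (UMI), between 493131 and 1473415 per library. The labels give no mouse age, antibody dose, immunisation or sorting gate, and do not say whether the 4 replicates came from separate mice, so that p-values reflect the spread of these samples alone, which may be technical.

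The cytosolic chaperonin, called CCT or TRiC, is a double ring in which each ring holds 1 copy of every subunit. It encloses newly made proteins and folds them with ATP, and actin and tubulin are its best known clients. Hspd1 encodes Hsp60, which forms the chaperonin ring of the mitochondrial matrix, and Hspe1 encodes Hsp10, the lid that closes it over imported proteins. Growing cells are known to need both machines.

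Levels below are in CPM, the UMI of a gene scaled to a common library size. They are used here to compare libraries for 1 gene, and genes are not ranked against each other by level. In these bulk samples, fewer cells of a type and less RNA per cell cannot be told apart.

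Genes of B cells and of germinal centre B cells were present in every library. The B cell genes Cd79a, Cd79b, Ms4a1 and Cd74 summed to 12444 to 21187 CPM. The germinal centre genes Bcl6, Fas and S1pr2 were present in every group, with summed medians of 986 CPM in isotype LZ, 435 in anti-CD40 LZ, 1011 in isotype DZ and 650.0 in anti-CD40 DZ. Of 4 plasma cell markers 3 were listed (Sdc1, Jchain and Xbp1), at summed medians of 558, 346, 740 and 675 CPM in the same order. Of the T cell markers 0 of 7 were listed in the table, and of the red cell and platelet markers 0 of 4. Of 9 myeloid and dendritic markers only Lyz2 was listed, at 0 to 11.8 CPM, and of 7 stromal markers only Pecam1, whose median was 76.0 CPM in isotype LZ, 17.6 in anti-CD40 LZ, 32.5 in isotype DZ and 31.4 in anti-CD40 DZ. The LZ markers Cd83, Cd86 and Cd40 summed to a median of 874.3 CPM in isotype LZ and 1927 in anti-CD40 LZ, and to 351 and 1055 CPM in the DZ groups. The DZ markers Cxcr4 and Mki67 summed to medians of 333 CPM in isotype LZ, 141 in anti-CD40 LZ, 417 in isotype DZ and 429 in anti-CD40 DZ. Within each antibody the LZ marker sums did not overlap between the zones. The DZ marker sums overlapped under isotype (303 to 472 CPM in the LZ, 373 to 569 CPM in the DZ) but not after anti-CD40. The part of these marker shifts in the results below was not tested.

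Hspd1 and Hspe1 are neighbours that read away from each other. On GRCm38, Hspd1 (ENSMUSG00000025980.14) lies on the minus strand of chromosome 1 from 55077835 to 55088243, and Hspe1 (ENSMUSG00000073676.4) on the plus strand from 55088132 to 55091307. Their annotated ends share 112 bases, so that 1 stretch of DNA is the start of both genes. RefSeq promoter windows, from 250 bases before a gene's start to 50 after it (GRCm38.p6), were matched for 9 of the 10 members, Cct4 being the exception, with 12 windows in all. They were searched for CACGTG, the E-box that Myc and related factors bind, and for GAANNTTC and TTCNNGAA, the paired units of a heat shock element. Each motif reads the same on both strands, and the latter pair can overlap each other. They are shown because windows of Hspd1 and Hspe1 carry a run of overlapping heat shock motifs. Another Hspd1 window carries an E-box, and 3 cytosolic subunits carry a single heat shock match. Capitals mark the matched bases.

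Hspe1, plus strand, chr1:55088053-55088082: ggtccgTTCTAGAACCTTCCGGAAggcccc
Hspd1, minus strand, chr1:55088306-55088335: ggccggctgggaCACGTGaaaaggccgcgc
Cct2, minus strand, chr10:117063399-117063428: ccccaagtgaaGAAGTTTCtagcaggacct
Cct5, minus strand, chr15:31601862-31601891: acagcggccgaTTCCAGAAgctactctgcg
Cct6a, plus strand, chr5:129787369-129787398: gcgtaagacttTTCGAGAAgaccccgcaga

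The 18 capital bases beside Hspe1 hold 3 overlapping matches and start 89 bases before its RefSeq start at 55088148. The Hspd1 window with its RefSeq start at 55087932 holds the same 18 bases on its own strand. The E-box shown is in a separate Hspd1 window, with its start at 55088243. Either heat shock motif stood in 5 of the 12 member windows, against 15.1% of all 32851 windows. By gene, 5 of the 9 matched members had such a window, against 17.0% of 27025 genes, and Hspd1 and Hspe1 count the same bases. CACGTG stood in 1 of the 12 member windows, against 7.15% of all windows, GAANNTTC in 3 against 7.86%, and TTCNNGAA in 4 against 8.52%. These are matches of letters and not measured binding sites.

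Light zone cells given anti-CD40 held more chaperonin RNA of both compartments than light zone cells given isotype antibody. Of the 10 members, 6 rose and none fell at an adjusted p under 0.05 (edgeR quasi-likelihood test, Benjamini-Hochberg over all 6824 genes): Cct2, Cct3, Cct5, Cct6a, Hspd1 and Hspe1. Over all tested genes, 10.8% rose by the same rule. The median log2 fold change of the members was 0.67, against 0.01 over all genes tested, and all 10 estimates were above 0, from 0.31 to 1.45. In the same 6 members every anti-CD40 library lay above every isotype library, which was the case for 11.4% of all genes. The authors' deposited table also calls 6 members in this comparison.

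**Figure D1:**
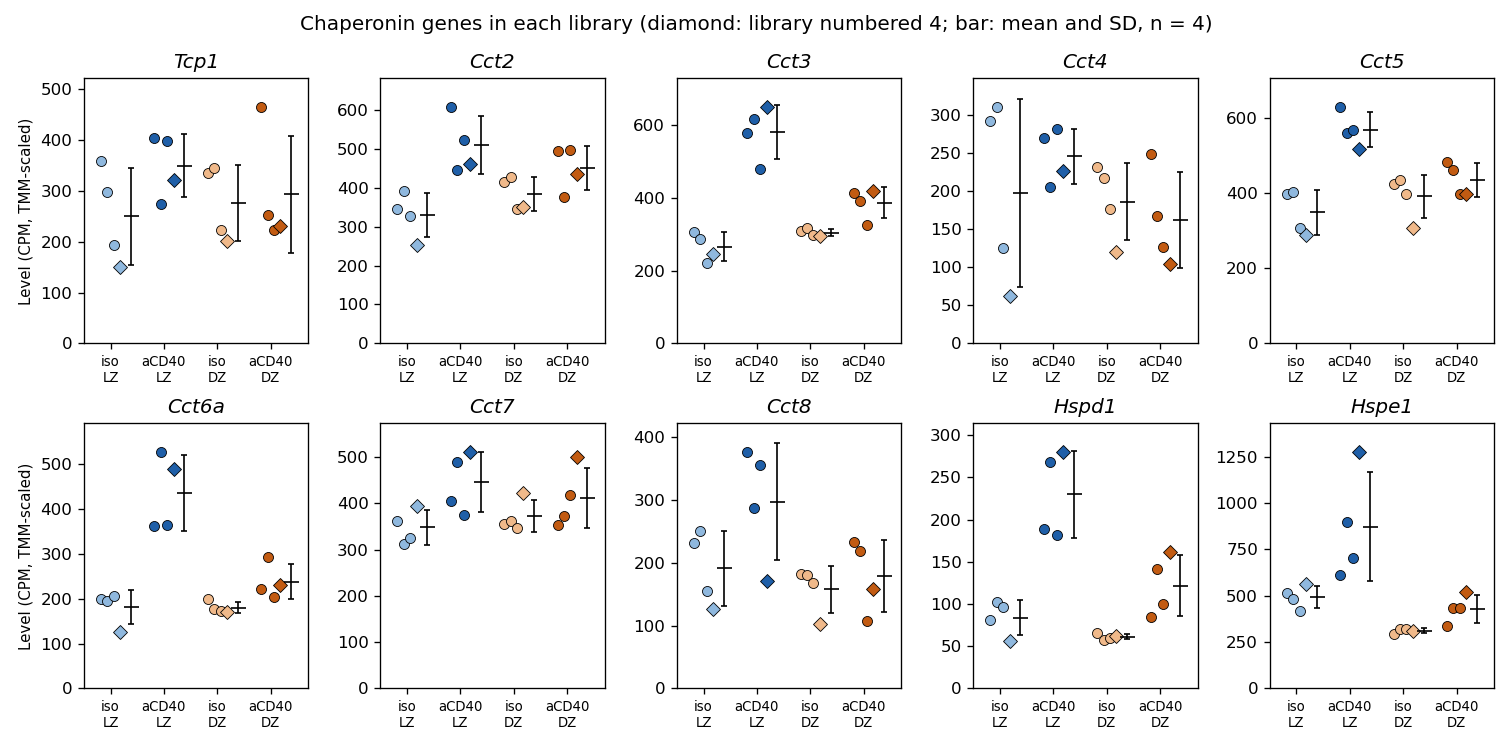
Level (CPM) of each chaperonin gene in every library, with the axis of each panel starting at 0. Points are single libraries, diamonds those numbered 4, and bars the mean and SD of 4 libraries. For Cct3, Cct5, Cct6a, Hspd1 and Hspe1, every anti-CD40 LZ library lies above all libraries of the other groups. Cct4 varies as much within isotype LZ as between groups.

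Hspd1 gave the largest estimate of the 10. It was at 80.6, 101.9, 96.9 and 56.4 CPM in the isotype LZ libraries and at 189, 268, 181 and 280.2 CPM in the anti-CD40 LZ libraries. The lowest treated library was far above the highest control. The log2 fold change was 1.45 (SE 0.23, adjusted p = 2.18e-04 by edgeR), a rise of 2.73-fold. Its partner Hspe1 was at 515, 481, 419 and 561 CPM with isotype and at 613, 896, 703 and 1276 CPM with anti-CD40. The groups did not overlap, but the treated libraries differed among themselves more than the controls did (SD 294 against 59.5 CPM). The change was 0.82 (SE 0.19, adjusted p = 0.00601).

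Among the cytosolic subunits, Cct6a, the zeta subunit, moved most. Its isotype LZ libraries were at 200.2, 196, 207 and 125 CPM and its anti-CD40 LZ libraries at 362, 528, 364 and 489 CPM. The highest control stayed far below the lowest treated library. The log2 fold change was 1.26 (SE 0.18, adjusted p = 9.78e-05 by edgeR). GENCODE lists Cct6a (ENSMUSG00000029447.11, chromosome 5, 129786998 to 129846371, plus strand) as a processed transcript. Cct3, the gamma subunit (ENSMUSG00000001416.13, chromosome 3, 88297116 to 88321767, plus strand), went from 308, 288, 220.0 and 245 CPM to 577, 618, 480.2 and 651 CPM. Again the groups did not overlap. Its change was 1.13 (SE 0.15, adjusted p = 3.62e-05 by edgeR), the smallest adjusted p of the 10.

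Cct5 and Cct2, the epsilon and beta subunits, rose less. Cct5 (ENSMUSG00000022234.15) lies on the minus strand of chromosome 15 from 31590800 to 31601804, and Cct2 (ENSMUSG00000034024.8) on the minus strand of chromosome 10 from 117051001 to 117063814. Cct5 was at 398, 403, 308 and 287 CPM with isotype and at 629, 560, 567 and 516 CPM with anti-CD40 (log2 fold change 0.70, SE 0.16, adjusted p = 0.00368 by edgeR). Cct2 was at 345, 391, 328 and 254 CPM against 608, 446, 523 and 461 CPM (0.63, SE 0.16, adjusted p = 0.00989). In both, the highest isotype library stayed below the lowest anti-CD40 library, though for Cct2 the gap was 391 to 446 CPM. Cct2 missed the threshold when only the LZ groups entered the fit (adjusted p = 0.0504, with 9.20e-04 to 0.0504 over all alternatives).

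The other 4 subunits did not pass in the fit of 4 group means. With the replicate numbers added to the fit as a block, Tcp1, Cct7 and Cct8 passed (adjusted p = 0.0245, 0.0335 and 0.00679 by edgeR). That block also moved the LZ calls over all genes from 1302 to 2013. The numbers are not taken as pairs, for reasons given in the last section. Cct8, the theta subunit, had an estimate as large as that of Cct2, 0.64, with a wider error (SE 0.28, adjusted p = 0.128 by edgeR). Its anti-CD40 LZ libraries were at 377, 287, 355 and 171 CPM, and 3 of the 4 were above every isotype library. The fourth, numbered 4, lay inside the isotype range of 127 to 251 CPM. Without the libraries numbered 4, 1 in each group, Cct8 passed at 0.65 (adjusted p = 0.0496, with 0.00679 to 0.300 over all alternatives). Cct7, the eta subunit (ENSMUSG00000030007.8, chromosome 6, 85451514 to 85468475, plus strand), had a small estimate with a narrow error (0.36, SE 0.15, adjusted p = 0.114), from 348 ± 36.9 to 445 ± 65.1 CPM (SD, n = 4). Its 95% interval, 0.06 to 0.65, lay below the estimates for Cct3 and Cct6a, although differences between subunits were not tested.

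Tcp1, the alpha subunit for which the complex was first named, was at 359, 298, 194 and 150 CPM in isotype LZ and at 404, 274, 398 and 321 CPM in anti-CD40 LZ. The groups overlapped, and the control libraries alone spanned more than the difference of the means (0.48, SE 0.28, adjusted p = 0.264 by edgeR). Cct4, the delta subunit (ENSMUSG00000007739.10, chromosome 11, 22990519 to 23003780, plus strand), was the least even member. Its isotype LZ libraries were at 292, 310.3, 125 and 61.7 CPM, a coefficient of variation of 62.3%, and its anti-CD40 LZ libraries at 269, 205, 282 and 226 CPM. The treated libraries all lay inside the range of the controls (0.31, SE 0.36, adjusted p = 0.626). The estimate was 0.016 without isotype LZ 4 and 0.61 without isotype LZ 2, and the 95% interval, -0.40 to 1.02, holds a fall as well as a rise of more than 2-fold.

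Summed over the 8 cytosolic subunits, the level was 2112 ± 425 CPM in isotype LZ and 3433 ± 136 CPM in anti-CD40 LZ (SD, n = 4). The isotype libraries reached at most 2494 CPM and the anti-CD40 libraries at least 3344 CPM, so that the sums did not overlap. Within that sum the subunits kept unequal shares. Cct3 made up 12.7 ± 1.49% of cytosolic subunit UMI with isotype and 17.0 ± 2.27% with anti-CD40, and Cct6a 8.69 ± 1.63% and 12.7 ± 2.72%. Cct7 made up 17.1 ± 4.92% and 13.0 ± 2.12%. Cct5 held an almost constant share, 16.6 ± 0.64% and 16.5 ± 0.82%. For each of these 4 subunits the libraries of the LZ groups overlapped in share, so the shares are given as a description.

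In the dark zone the same antibody was followed by smaller estimates. Hspd1 was the only member to pass, where 2.24% of all genes rose. Its isotype DZ libraries lay close together at 65.7, 57.7, 60.1 and 61.6 CPM, and its anti-CD40 DZ libraries were at 84.4, 141, 99.7 and 162 CPM. Every treated library was above every control, with a log2 fold change of 0.98 (SE 0.23, adjusted p = 0.0221 by edgeR). The call was lost without isotype DZ 1, 2 or 3, or without anti-CD40 DZ 2 or 4. There the estimate stayed between 0.83 and 1.01 and the adjusted p was 0.0575 to 0.0941 by edgeR. Over all genes these fits called 98 to 140, against 163 with every library. Across all alternatives the adjusted p for Hspd1 was 0.00232 to 0.0941.

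Groups that did not overlap were seen in 4 members of the dark zone, against 4.95% of all genes: Cct3, Cct6a, Hspd1 and Hspe1. Hspe1 was at 295, 322, 322 and 308 CPM with isotype and at 335, 434, 433 and 518 CPM with anti-CD40 (log2 fold change 0.46, SE 0.19, adjusted p = 0.348 by edgeR). Cct6a was at 171 to 199 CPM against 204 to 294 CPM (0.40, SE 0.18, adjusted p = 0.402), and Cct3 at 297 to 316 CPM against 325 to 418 CPM (0.35, SE 0.14, adjusted p = 0.345). These 3 genes are thus higher in each treated library by an amount that does not pass over the whole table.

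The remaining dark zone estimates ran from -0.19 for Cct4 to 0.23 for Cct2, with adjusted p of 0.722 to 0.979. The median over the 10 members was 0.21, against -0.01 over all genes, and 9 of 10 were above 0. Tcp1, at 0.09, depended on 1 library: anti-CD40 DZ 1 was at 465 CPM and the other libraries of its group at 222 to 253 CPM. Without it the estimate was -0.21 (adjusted p = 0.809, with none under that over all alternatives). The summed cytosolic subunits were at 2251 ± 243 CPM with isotype and 2555 ± 259 CPM with anti-CD40 (SD, n = 4), and the libraries overlapped.

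**Figure D2:**
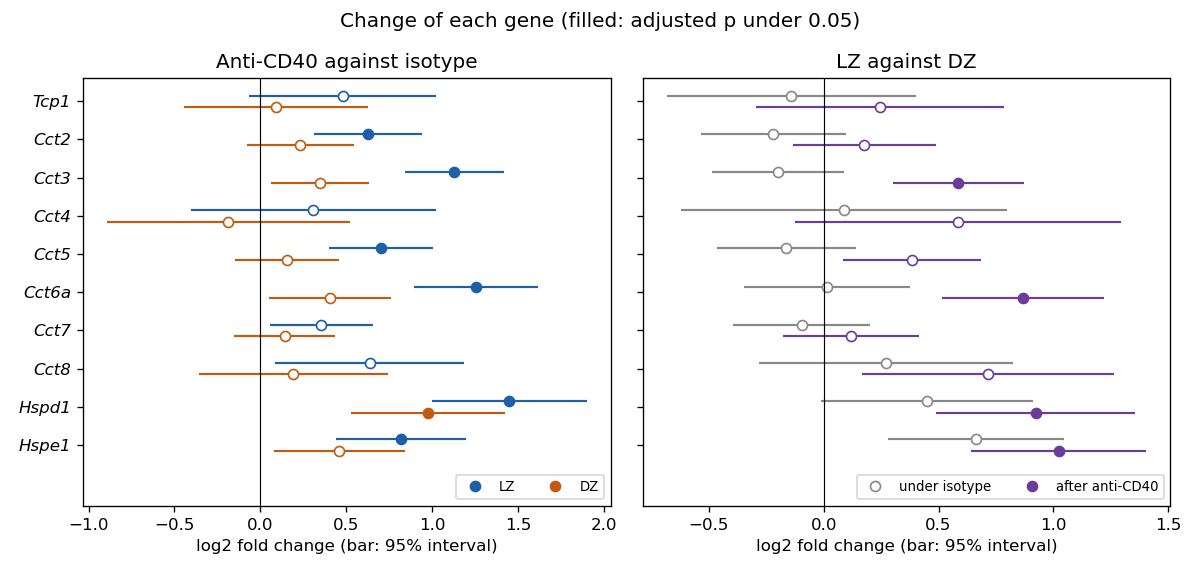
Log2 fold change of each chaperonin gene for anti-CD40 against isotype in each zone (left) and for LZ against DZ under each antibody (right). Bars are 95% intervals, and filled points passed an adjusted p under 0.05. The LZ change lies to the right of the DZ change for all 10 genes, while the bars of most pairs overlap.

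Whether the antibody's effect differed between the zones was tested as an interaction. All 10 members had a larger estimate in the LZ than in the DZ, with a median difference of 0.46 on the log2 scale and a range of 0.21 to 0.85. None passed with edgeR, where 1 gene of the whole table did (0.0147%). An unadjusted p under 0.05 was seen in 586 of all 6824 genes and in 3 members. Those were Cct6a (difference 0.85, SE 0.26, adjusted p = 0.303), Cct3 (0.78, SE 0.21, adjusted p = 0.242) and Cct5 (0.55, SE 0.22, adjusted p = 0.467). DESeq2 called 1 member, Cct3 (adjusted p = 0.0224, with 0.0195 to 0.555 over all alternatives), and limma-voom called 0. For Hspd1 the difference was 0.47 with a 95% interval of -0.16 to 1.10, which holds both no difference and one of more than 2-fold. The 10 members are measured in the same libraries, so that their shared direction is not 10 separate observations.

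Under isotype antibody no chaperonin gene was called between the zones with edgeR, where 2.23% of all genes did in either direction, and DESeq2 and limma-voom called 0 as well. An unadjusted p under 0.05 was seen in 822 of all 6824 genes and in a single member, Hspe1. Its LZ libraries, at 419 to 561 CPM, all lay above its DZ libraries, at 295 to 322 CPM, a separation in that direction seen in 4.32% of all genes. The log2 difference was 0.66 (SE 0.19, adjusted p = 0.0909 by edgeR), and Hspe1 passed when only the isotype groups were fitted (adjusted p = 0.0340, with 0.00457 to 0.234 over all alternatives). Hspd1 was at 84.0 ± 20.5 CPM in the LZ and 61.3 ± 3.36 CPM in the DZ (0.45, SE 0.24, adjusted p = 0.474). The 8 cytosolic subunits had estimates of -0.22 to 0.27, each with a 95% interval that included 0, the widest being -0.62 to 0.80 for Cct4.

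After anti-CD40 the zones differed in 4 members, all higher in the LZ, where 6.14% of all genes were called higher. This comparison shares its libraries with those above and is given as a description of the same values. Hspe1 differed by 1.02 (SE 0.19, adjusted p = 0.00184 by edgeR), Hspd1 by 0.92 (SE 0.22, adjusted p = 0.00939), Cct6a by 0.87 (SE 0.18, adjusted p = 0.00341) and Cct3 by 0.59 (SE 0.14, adjusted p = 0.0114). In these genes and in Cct5 (0.38, adjusted p = 0.117), every LZ library lay above every DZ library, which held for 8.59% of all genes. Cct3 fell short of the threshold when only these groups were fitted (adjusted p = 0.0581, with 6.80e-04 to 0.0764 over all alternatives). It also fell short without anti-CD40 LZ 2 (adjusted p = 0.0612) and without anti-CD40 DZ 3 (adjusted p = 0.0764), where Hspd1 was at the threshold (adjusted p = 0.0501). Cct8, at 0.72 (SE 0.28, adjusted p = 0.109), passed without the libraries numbered 4 (adjusted p = 0.0182, with 0.00341 to 0.337 over all alternatives).

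Hsp60 and Hsp10 work together, and their genes share a start region, so their ratio within each library was taken as a value of its own. There were 6.38, 4.72, 4.33 and 9.94 Hspe1 UMI per Hspd1 UMI in isotype LZ and 3.24, 3.34, 3.88 and 4.55 in anti-CD40 LZ. The dark zone gave 4.48, 5.58, 5.37 and 5.0 with isotype and 3.97, 3.07, 4.34 and 3.20 with anti-CD40. Every treated DZ library was below every DZ control, while in the LZ the groups overlapped through isotype LZ 3 and anti-CD40 LZ 4.

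On the log2 scale, with 0.5 added to each count, the mean ratio was lower with anti-CD40 by 0.68 in the LZ (2.57 ± 0.54 with isotype, 1.89 ± 0.23 with anti-CD40; SD, n = 4; exact two-sided permutation p = 0.0571, adjusted p = 0.114 over 4 comparisons). In the DZ it was lower by 0.49 (2.34 ± 0.14 and 1.85 ± 0.24, exact permutation p = 0.0286, adjusted p = 0.114). Isotype LZ 4 carried part of the LZ difference: without it the ratio was lower by 0.44 (exact permutation p = 0.0857, not adjusted). The value 0.0286 is the smallest that 70 arrangements of 4 against 4 libraries allow. LZ and DZ differed by 0.23 under isotype (exact permutation p = 0.514, adjusted p = 0.686) and by 0.04 after anti-CD40 (exact permutation p = 0.743, adjusted p = 0.743). None passed after adjustment. The smallest allowed value became 0.114 in the DZ, so 1 comparison at that value could not have passed alone.

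**Figure D3:**
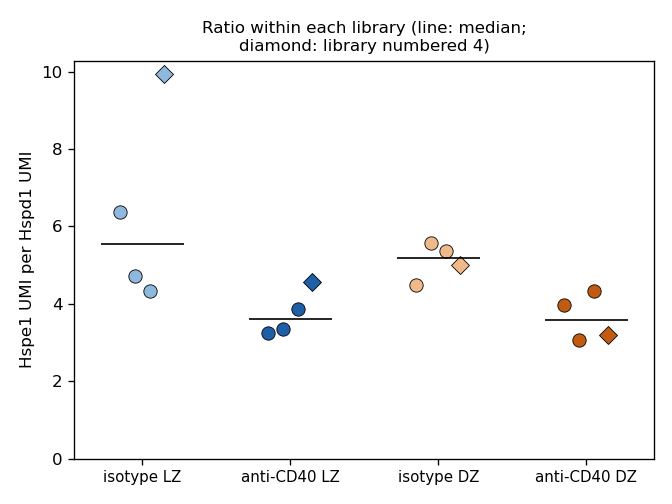
Hspe1 UMI per Hspd1 UMI in each library, on an axis starting at 0. Lines are group medians and diamonds the libraries numbered 4. The anti-CD40 libraries lie between 3.07 and 4.55 and the isotype libraries between 4.33 and 9.94.

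The libraries numbered 4 had a place of their own in several members. Cct7 was highest in library 4 in 4 of the 4 groups, and Hspe1 in 3. Cct4, Cct5 and Cct8 were lowest in library 4 in 3 of the 4 groups. What sets these libraries apart is not given by the labels, and their part in the results was not tested beyond leaving them out. Places of library 4 were counted for the members only, not over all genes. Without these libraries, the count of members called was 7 in the LZ, 1 in the DZ and 5 between the zones after anti-CD40. Over all genes the calls were then 1188, 222 and 903 in the same order, against 1302, 163 and 786 with every library.

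Some counts can hold reads of other sequences. GENCODE vM21 names 5 pseudogenes for Hspd1, 6 for Hspe1 and 1 each for Tcp1 and Cct3, and how reads shared with such copies were counted is not given in the sources used here. The 3′ end of Tcp1 (ENSMUSG00000068039.13, chromosome 17, 12915701 to 12925067) overlaps Acat3 on the opposite strand by 1255 bases, and that of Cct8 (ENSMUSG00000025613.13, chromosome 16, 87483326 to 87495873) overlaps Usp16 by 192 bases. Whether counting used strand is likewise not given, so the values of these genes are uncertain to that extent. Cct2, Cct4 and Cct5 have neither a named pseudogene nor an overlapping gene in that annotation.

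The likeness of other genes to the members was measured as the root mean square difference of log2 CPM, each gene centred on its own mean, over the 16 libraries. The genes nearest to the mean profile of the 8 cytosolic subunits were Rabepk (0.12), Ddx39 (0.14), Ccdc124 (0.16), Pop5 (0.16) and Fcf1 (0.16), where the median over all tested genes was 0.56. Cct5 was the member closest to that mean (0.09), but the mean includes Cct5 itself. Nearest to Hspd1 were Pwp2 (0.22), Chchd4 (0.24) and Shmt1 (0.25), and nearest to Hspe1 were Isyna1 (0.17), Adpgk (0.22) and Zfas1 (0.23).

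The members were not uniformly each other's nearest genes. For 7 of the 10, at least 1 other member was among the 50 nearest genes. How often a member is that near to genes in general was not counted. Cct5 and Cct2 were within the 50 nearest to Tcp1, Cct5 was at place 3 for Cct2, and Cct2 at place 12 for Cct5. Cct5 and Cct6a were within the 50 nearest to Cct3, Cct3 within those of Cct6a, Tcp1 within those of Cct4, and Cct6a within those of Hspd1. No other member was within the 50 nearest to Cct7, Cct8 or Hspe1. The member nearest to Hspe1 was Cct6a, at place 283 of the whole table, and the one nearest to Cct7 was Cct2, at place 1016.

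The chaperonins receive clients from other folding factors, and these were counted in the same fit. Prefoldin is the complex that hands nascent actin and tubulin to CCT. In LZ cells given anti-CD40, 2 of 8 tested genes of the prefoldin and prefoldin-like list rose and none fell, with a median of 0.47. Over all tested genes, 10.8% rose in that comparison. The 2 genes were Pfdn6 (log2 fold change 0.50, SE 0.17, adjusted p = 0.0433 by edgeR) and Pdrg1 (0.60, SE 0.21, adjusted p = 0.0490), and Uxt was at 0.84 (SE 0.31, adjusted p = 0.0679). Pdcl3, the only phosducin-like CCT cofactor tested, was at 0.17 (adjusted p = 0.654). Of 5 chaperonin-like paralogs none was tested and 2 were listed.

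Genes whose proteins CCT folds were counted as clients. Of 16 tested CCT clients, none rose and 2 fell in the LZ, with a median of -0.13, where 8.24% of all genes fell. Those were Tubg1, the gamma-tubulin of the spindle poles (-0.66, SE 0.18, adjusted p = 0.0128 by edgeR), and Tuba1a, an alpha-tubulin (-0.67, SE 0.21, adjusted p = 0.0309). Tuba4a, another alpha-tubulin, was at 0.36 (SE 0.17, adjusted p = 0.165), and Actb, cytoplasmic beta-actin, at 0.15 (SE 0.12, adjusted p = 0.475). None of 5 tubulin folding cofactors passed in either direction, with a median of -0.05.

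The Hsp70 and Hsp90 systems of the cytosol act upstream of, and beside, CCT. In the LZ, 6 of 18 tested genes rose and 1 fell, where 10.8% of all genes rose and 8.24% fell. The median was 0.56. St13, a co-chaperone that links Hsp70 to Hsp90, changed by 1.03 (SE 0.20, adjusted p = 0.00159 by edgeR) and Ahsa1, an activator of the Hsp90 ATPase, by 0.90 (SE 0.23, adjusted p = 0.00910). Dnajc7, a co-chaperone of the J-protein family, was the gene that fell (-0.55, SE 0.15, adjusted p = 0.0174). Classical heat-inducible and dissociation stress genes were scarce: 5 of 13 were listed and 3 tested. Egr1, an immediate early gene, fell by 0.79 (SE 0.27, adjusted p = 0.0420), Dnajb1 was at -0.55 (SE 0.23, adjusted p = 0.109), and Hsf1, the heat shock transcription factor, was at 0.60 (SE 0.22, adjusted p = 0.0610). The inducible Hsp70 genes Hspa1a and Hspa1b were on this list but not, under these symbols, in the deposited count table.

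In the mitochondrial matrix, 4 of 13 tested folding and protease genes rose in the LZ, where 10.8% of all genes did. None fell, and the median was 0.44. Clpp, a matrix protease subunit, changed by 0.87 (SE 0.18, adjusted p = 0.00194 by edgeR). Afg3l2, a protease of the inner membrane, changed by 1.09 (SE 0.27, adjusted p = 0.00778), and Dnaja3, the J-protein partner of mitochondrial Hsp70, by 1.06 (SE 0.30, adjusted p = 0.0168). Of 3 transcription factors of the mitochondrial stress response, Atf4 rose (0.65, SE 0.16, adjusted p = 0.00884), while Ddit3 (0.25, adjusted p = 0.546) and Atf5 (0.38, adjusted p = 0.369) did not pass. In the endoplasmic reticulum none of 15 tested chaperone genes passed, with a median of 0.02.

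In the dark zone 1 gene of these lists passed, Dnajb1, which was lower with anti-CD40 (-0.87, SE 0.22, adjusted p = 0.0356 by edgeR), where 0.147% of all genes fell. Medians there were -0.01 for prefoldin genes, -0.13 for clients, 0.19 for the cytosolic Hsp70 and Hsp90 genes, 0.17 for the matrix genes and 0.03 for the endoplasmic reticulum genes. After anti-CD40, 6.14% of all genes were called higher in the LZ than in the DZ. Of the lists, 2 of 18 cytosolic Hsp70 and Hsp90 genes, 2 of 13 matrix genes and 2 of 15 endoplasmic reticulum genes were. So were Egr1 (0.90, adjusted p = 0.0426 by edgeR) and, of 16 clients, Actb (0.42, adjusted p = 0.0330). The clients Cdc20, an activator of mitotic exit (-1.06, adjusted p = 0.00384), and Tuba1a (-0.71, adjusted p = 0.0318) were lower in the LZ, where 5.38% of all genes were. Under isotype Cdc20 was the only gene of these lists called between the zones (-0.85, adjusted p = 0.0477).

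**Figure D4:**
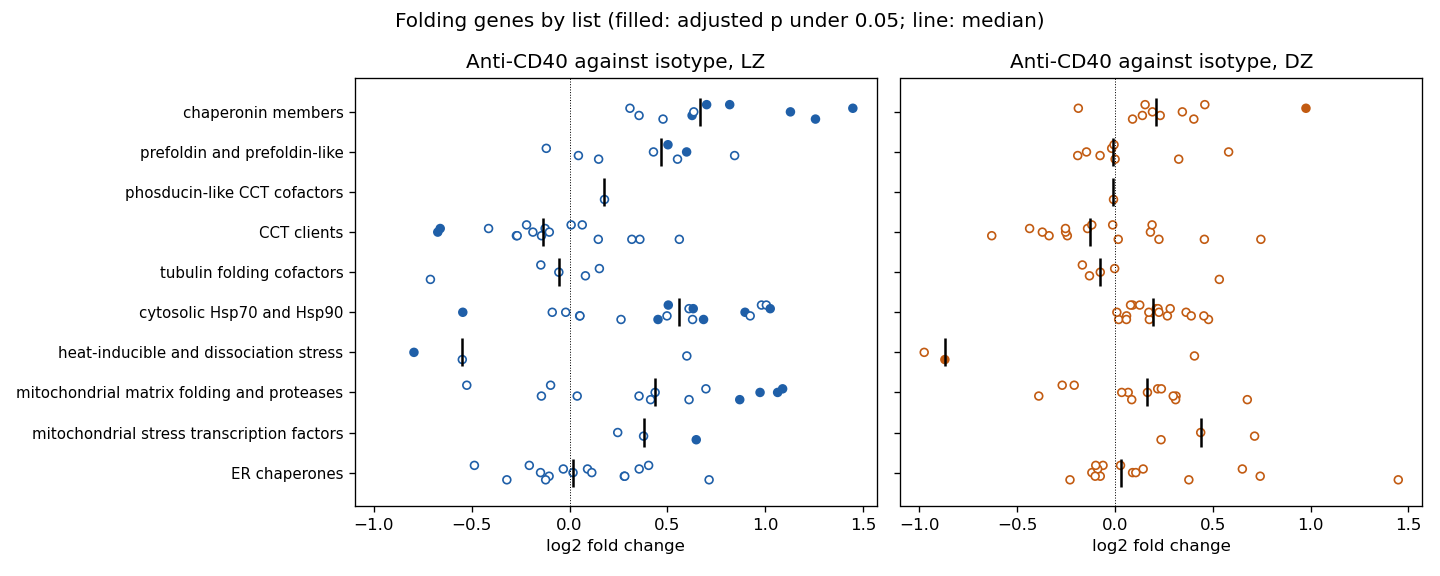
Log2 fold change of each tested gene for anti-CD40 against isotype in the LZ (left) and the DZ (right), by list of folding genes. Filled points passed an adjusted p under 0.05 and black lines are list medians. In the LZ the chaperonin median is 0.67 and the client median -0.13, and in the DZ 0.21 and -0.13.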

How the data were processed

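Polyadenylated RNA of 16 sorted samples was barcoded at reverse transcription, pooled and amplified linearly by in vitro transcription, per the labels' protocols. The authors deposited raw UMI counts for 9443 genes, a normalized signal per library, and DESeq2 log2 fold changes with p-values for comparisons between groups, of which 4 were used here. Per the submitters' processing notes, cutadapt, STAR, HTSeq and DESeq2 were used with mm10; versions are not given in the sources used here.

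The raw counts were tested with edgeR 4.0.16 (R 4.3.3). The filterByExpr filter, at a minimum count of 10, kept 6824 genes. With TMM scaling, robust quasi-likelihood fits of 4 group means used all 16 libraries together, and the biological coefficient of variation was 24.6%. The threshold was 0.05 for p-values adjusted by Benjamini-Hochberg over the 6824 genes. The code was tested on simulated data. Intervals at 95% are normal, from the SE. CPM are TMM-scaled, except summed marker CPM, which use the library total; some cell type markers are not reported here. Likeness was taken from log2 CPM (prior count 2). Alternatives used DESeq2 1.42.0 and limma 3.58.1. Ratios of Hspe1 to Hspd1 were compared by exact permutation in Python 3.11.15.

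In the shallowest library 1 UMI stood for 2.03 CPM, and a count of 0 allowed up to 6.08 CPM (3 counts), for counting error only. Genes named beside the 10 members were up to 3 per list with the smallest adjusted p in the LZ comparison, and the nearest genes by likeness. Actb and Cdc20 were added outside that rule after their values were seen. Lists and members were chosen with earlier results of these data known. Annotation came from GENCODE vM21 and promoter sequence from RefSeq.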

Additional observations from a re-analysis of the deposited data

Results flagged for a closer look

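Among 40 groups of 4 libraries, 10 genes in 4 groups, 2 held a library far from the others by Dixon's test, where chance gives about 1 in 20. Tcp1 was at 465 CPM in anti-CD40 DZ 1, with the other libraries of the group at 222 to 253 CPM, so that the gap was 0.874 of the range. Cct6a was at 125.2 CPM in isotype LZ 4, with the others at 196 to 207 CPM, a gap of 0.863 of the range.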

How the results depend on the processing

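Of 920 estimates of single members under the alternatives, 883 kept direction and side of the threshold. The LZ count of 6 members was 6 to 7 with 1 library left out. The DZ count of 1 was 0 to 1 when 1 library was left out. Between zones after anti-CD40 the count of 4 was 2 to 5, the lowest without anti-CD40 DZ 3, where Cct3 and Hspd1 (adjusted p = 0.0501) were lost. For the interaction DESeq2 called 1 member, and under isotype a fit of only the groups compared called 1; the cause was not tested. With a replicate block the member counts were 9 in the LZ (with Tcp1, Cct7 and Cct8 added at adjusted p of 0.0245, 0.0335 and 0.00679), 1 in the DZ, 2 for the interaction, 1 between zones under isotype and 6 after anti-CD40. Over all genes the block moved the calls from 1302 to 2013 in the LZ, 163 to 427 in the DZ, 1 to 107 for the interaction, 152 to 433 and 786 to 1533 between zones. DESeq2 gave 38 for the interaction and 235 between zones under isotype, and the fit of only those groups 101. Same-numbered libraries correlated by 0.0117 to 0.492 in the LZ and by -0.205 to 0.579 in the DZ. Between zones the range was 0.0656 to 0.657 under isotype and -0.124 to 0.516 after anti-CD40. All pairs exceeded 0.1 in none of these 4 comparisons, and only between isotype LZ and anti-CD40 DZ, which were not compared (0.183 to 0.658). Not each library correlated best with its own number, and those numbered 4 correlated most, so the numbers are a hint and are not taken as pairs. Signs changed for small estimates. Tcp1 in the DZ ran from -0.21 to 0.21 with 1 library left out. Between zones under isotype, Tcp1 ran from -0.36 to 0.035, Cct4 from -0.21 to 0.38 and Cct6a from -0.048 to 0.15. There limma-voom gave -0.13 for Cct4 and -0.0094 for Cct6a, and no filter -0.016 for Cct6a. The ratio of Hspe1 to Hspd1 between zones under isotype ran from -0.0061 to 0.39 with 1 library left out and was -0.015 without those numbered 4. After anti-CD40 it ran from -0.053 to 0.13 and was -0.11. The causes were not tested. Depth limits low genes: Hspd1 held 208 UMI over the 4 isotype LZ libraries.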
